A study of Mus musculus with 2 samples.

Results

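The neural crest specifier genes examined here were Foxd3, Tfap2a, Tfap2b, Snai1, Snai2, Twist1, Ets1 and Ednrb. Their members were the authors' consensus intervals that lay closer to the start of one of these 8 genes than to any other protein-coding gene's. There were 157 such intervals among 119502 in the whole data set, and the 8 genes were chosen among 21938 protein-coding genes by name, not by any measured value. A gene's start was the 5′ end of its GENCODE record on mm10, and distances ran from there to the nearest edge of an interval. Assignment rested on distance alone, and whether an interval regulates the gene was not measured. Nor was every member shown to be open in these cells, since counts went down to 1.

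The assay was ATAC-seq, which reads out open chromatin through a transposase that cuts accessible DNA and adds sequencing adapters to it. The 2 libraries were replicates of 1 group: neural progenitors (NPs) differentiated from the mouse ES cell line Olig2-mKate2, which carries a fluorescent reporter of Olig2, sorted live for Olig2 expression on day 5 with 50000 cells per transposition. According to the study such a sort also takes in motor neurons that have just formed and some progenitors positive for both OLIG2 and NKX2.2. The cells had received bFGF and LGK, then bFGF with CHIR99021, SB-431542 and DMH1, and from day 3 100 nM retinoic acid (RA) and 100 nM SAG, an agonist of Smoothened that activates the Shh pathway. ES cells had been kept on mouse embryo fibroblast feeders, which were removed by plating before differentiation. No untreated or other control group was used here, so levels were compared between genes and intervals and no condition was tested against another. The labels give nothing on whether the replicates came from separate differentiations, and their spread may be technical.

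Neural crest cells form at the border of the neural plate and the dorsal neural tube, pass through an epithelial-to-mesenchymal transition (EMT), and migrate to form peripheral neurons and glia, melanocytes and much of the skeleton of the face. Signals at the border first turn on border factors of the Pax, Msx and Zic families, and these turn on specifiers such as Foxd3, the AP-2 factors and the Snail factors, which in turn drive EMT and migration. Olig2-expressing progenitors occupy the ventral spinal cord, away from the region where crest cells arise.

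Sequences are given for the promoters and distal intervals on which the following comparisons turn: the promoter of highest density at a gene 5′ end (Snai1), that of its relative Snai2, which had 1 other interval, the upstream stretch of Tfap2b, which lay outside every interval, and the middle of the distal interval of highest density, among those with no coding start, of Ednrb, Ets1 and Twist1. All were read from the RefSeq genome GRCm38.p6, the build of mm10, and run 5′ to 3′. The promoter stretches are the 250 bases before the gene on its plus strand: Snai1 at chr2:167537945-167538194, Snai2 at chr16:14705602-14705851 and Tfap2b at chr1:19208664-19208913. The distal stretches are the central 300 bases on the plus strand: Ednrb at chr14:103899115-103899414, Ets1 at chr9:32716078-32716377 and Twist1 at chr12:34220109-34220408. Capitals mark matches on either strand to CAGGTG (the E-box that Snail factors bind), CAGATG and CAGCTG (other E-boxes of bHLH factors) and GCCNNNGGC (AP-2), and in the distal stretches also to ACAATG (Sox), TAATTA (homeodomain) and GTAAACA (forkhead).
Snai1 promoter: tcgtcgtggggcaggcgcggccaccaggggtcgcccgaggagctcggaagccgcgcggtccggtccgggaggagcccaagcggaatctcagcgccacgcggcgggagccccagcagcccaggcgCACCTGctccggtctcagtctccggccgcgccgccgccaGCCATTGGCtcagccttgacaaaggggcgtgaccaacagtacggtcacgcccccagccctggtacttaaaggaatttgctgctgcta
Snai2 promoter: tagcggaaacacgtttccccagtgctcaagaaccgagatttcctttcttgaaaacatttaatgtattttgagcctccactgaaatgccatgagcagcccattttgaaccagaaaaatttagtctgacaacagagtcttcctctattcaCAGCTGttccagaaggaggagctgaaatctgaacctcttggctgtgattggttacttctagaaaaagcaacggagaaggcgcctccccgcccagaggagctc
Tfap2b upstream: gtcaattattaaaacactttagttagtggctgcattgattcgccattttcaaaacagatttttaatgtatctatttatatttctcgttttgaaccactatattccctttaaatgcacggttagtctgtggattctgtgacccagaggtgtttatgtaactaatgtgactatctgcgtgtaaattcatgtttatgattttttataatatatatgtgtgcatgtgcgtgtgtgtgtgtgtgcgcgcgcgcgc
Ednrb distal: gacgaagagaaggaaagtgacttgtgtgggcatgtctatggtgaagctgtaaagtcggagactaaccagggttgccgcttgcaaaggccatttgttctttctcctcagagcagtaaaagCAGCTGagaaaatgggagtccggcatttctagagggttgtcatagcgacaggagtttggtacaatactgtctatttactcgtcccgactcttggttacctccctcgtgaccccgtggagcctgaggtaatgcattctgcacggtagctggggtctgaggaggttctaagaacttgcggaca
Ets1 distal: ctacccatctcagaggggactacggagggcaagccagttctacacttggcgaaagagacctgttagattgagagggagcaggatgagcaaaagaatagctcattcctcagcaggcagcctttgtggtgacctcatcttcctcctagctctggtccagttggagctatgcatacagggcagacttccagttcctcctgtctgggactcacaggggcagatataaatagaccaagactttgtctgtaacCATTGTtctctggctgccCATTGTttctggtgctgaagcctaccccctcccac
Twist1 distal: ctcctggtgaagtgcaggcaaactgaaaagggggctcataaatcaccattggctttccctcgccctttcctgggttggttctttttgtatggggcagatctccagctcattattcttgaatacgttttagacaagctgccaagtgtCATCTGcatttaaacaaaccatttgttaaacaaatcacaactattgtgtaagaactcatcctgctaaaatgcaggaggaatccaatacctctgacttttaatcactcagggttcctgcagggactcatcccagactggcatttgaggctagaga

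The Snai1 stretch was 70.0% G and C and held 1 E-box of the Snail type (read as CACCTG on this strand) and 1 AP-2 match, whereas the Tfap2b stretch was 36.0% G and C and held none of the marked motifs. The median over all genes was 54.0% (quartiles 46.4 and 62.4). The other members ranged from 46.0% at Snai2 to 65.6% at Foxd3. The marked motifs in the distal stretches were 1 CAGCTG at Ednrb, 2 Sox matches at Ets1 and 1 CAGATG (read as CATCTG) at Twist1.

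The whole table held 31876165 counts in replicate 1 and 31672240 in replicate 2, with a median of 65 and 66 per interval. The 157 member intervals held 39210 and 39065 of these, 0.123% in each library, and ranged from 1 to 1943 counts. Levels are given below as normalised counts, that is counts divided by the DESeq2 size factor of the library (1.00 in both), and, where genes or intervals of different length are compared, as density in normalised counts per kb with mean ± SD over the 2 replicates. In such bulk samples, fewer open cells and less access per cell cannot be told apart.

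Markers of neural progenitors were checked first. All 7 (Sox1, Sox2, Sox3, Pax6, Nkx6-1, Olig2 and Nes) had an interval at a coding start, with densities from 613 to 1498. Of all protein-coding genes, 66.7% had one. Among markers of other cells, 3 of 7 fibroblast genes (0 to 248; Col1a1, Col3a1, Lum and Postn at 0), 2 of 6 endothelial genes (0 to 718; Cdh5, Pecam1, Emcn and Tie1 at 0) and 1 of 4 paraxial mesoderm genes (0 to 529; Tbx6, Meox1 and Msgn1 at 0) had one.

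Promoter accessibility differed widely among the 8 genes. By density, Snai1, Ednrb and Snai2 were above the median of genes with an interval at their start. Twist1, Foxd3, Tfap2a and Ets1 were below it. By normalised counts not divided by length, the median was 1156, with Twist1 (1392) above it and Snai2 (1066) below it. The other members with an interval there kept their side. Ranked by density among intervals at a gene 5′ end, Snai1 was at the 86.3rd percentile, Ednrb at the 68.6th and Snai2 at the 56.2nd. Twist1 was at the 23.6th, Foxd3 at the 18.6th, Tfap2a at the 10.0th and Ets1 at the 9.80th. The promoter percentiles given below are instead over all genes, with those lacking an interval at 0. At the gene 5′ end, 7 of the 8 genes had an interval, against 61.5% of all protein-coding genes (13500), whose median density was 884 (quartiles 505 and 1318). All 8 had one when the start of every protein-coding transcript was counted, against 66.7% of all genes (14638, median 853). With genes that had no interval at 0, the median over the 8 genes was 419 ± 23.2 (n = 2) at gene 5′ ends, against 402 over all genes, and 702 ± 48.3 at coding-transcript starts, against 487 over all genes. The values of Ets1 and the AP-2 genes differed between these definitions, and those of the other 5 genes did not.

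**Figure D1:**
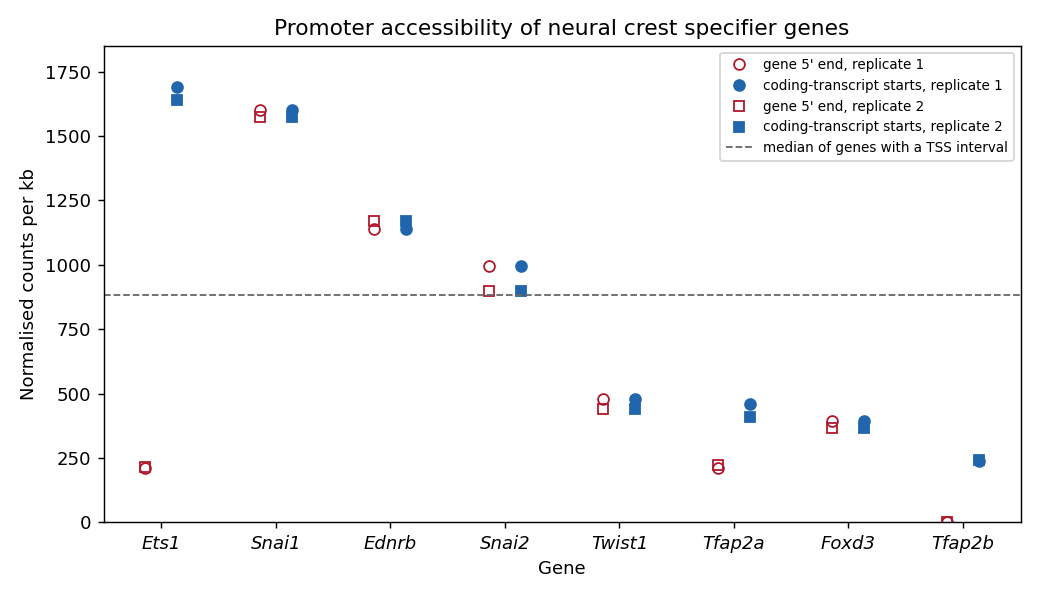
Promoter density (vertical axis, normalised counts per kb) of each gene (horizontal axis) in replicate 1 (circles) and replicate 2 (squares), at the gene 5′ end (open, red) and over all coding-transcript starts (filled, blue). The dashed line is the median of genes with an interval at their 5′ end, 884. Ets1 moved from near the bottom to the top of the order when coding-transcript starts were used, while Snai1, Ednrb, Snai2, Twist1 and Foxd3 had the same value under both.

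The Snail factors are zinc-finger repressors of epithelial genes such as E-cadherin. The interval at the Snai1 start (chr2:167537657-167538450) held 1271 and 1251 counts, a density of 1601 and 1575 in the 2 replicates (1588 ± 18.7). This level was at the 90.9th percentile of all protein-coding genes. The interval at the Snai2 start (chr16:14705251-14706378) held 1120 and 1012 counts, a density of 993 and 897 (945 ± 68.2, 71.9th percentile). Neither Snai2 replicate reached the lower Snai1 replicate, and the replicates of Snai2 were farther apart than those of Snai1.

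Ednrb encodes the endothelin receptor on migrating precursors of melanocytes and enteric neurons, and is the one member that is no transcription factor. The interval at its start (chr14:103843211-103844649) held 1638 and 1686 counts, a density of 1139 and 1171 (1155 ± 22.9, 79.7th percentile), between those of Snai1 and Snai2. By counts per interval the Ednrb start came first among the gene 5′ ends, with 1662 ± 33.0 normalised counts, since its interval was longer than that of Snai1.

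Twist1 encodes a bHLH factor of crest mesenchyme and EMT. The interval at its start (chr12:33956011-33959041) was 3031 bases long and held 1452 and 1332 counts, a density of 479 and 439 (459 ± 28.3, 52.1st percentile). Per interval it was second to Ednrb among the gene 5′ ends (1392 ± 85.7 normalised counts), so the low density came with a wide interval. Foxd3 encodes a forkhead repressor of the earliest crest, also used by pluripotent cells. The interval at its start (chr4:99656051-99658135) held 817 and 764 counts, a density of 392 and 366 (379 ± 18.2, 49.2nd percentile). Foxd3 lay below Twist1 in both replicates.

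The AP-2 factors Tfap2a and Tfap2b act in the border, the crest and the surface ectoderm. The Tfap2a gene starts on the minus strand of chromosome 13 in an interval (chr13:40737929-40738531) of 127 and 135 counts, a density of 211 and 224 (217 ± 9.26, 44.2nd percentile). Coding transcripts also start in intervals 4.02 kb downstream (507 and 467 counts) and 6.56 kb downstream (904 and 770 counts), and over these 3 the density was 457 and 408 (433 ± 35.1). The downstream starts of Tfap2a were therefore the more accessible ones. No interval overlapped the 5′ end of Tfap2b. The nearest (chr1:19208925-19210888) began 0.011 kb past it, held 546 and 558 counts and covered coding starts, and together with one 2.85 kb downstream it gave a density of 239 and 241 (240 ± 1.79), the lowest of the 8 genes by coding starts.

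Ets1 encodes an ETS factor of crest delamination that endothelial and blood cells also use. The interval at the 5′ end of its record (chr9:32635845-32636265) held 88 and 91 counts, a density of 209 and 216 (213 ± 4.92, 44.1st percentile), and contained no start of a coding transcript. The interval with the coding starts (chr9:32695499-32696516), 59.3 kb downstream, held 1720 and 1670 counts, a density of 1690.3 and 1639.8 (1665 ± 35.7, 92.1st percentile). It was the most accessible coding start of the 8 genes.

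In the order by gene 5′ end (Snai1, Ednrb, Snai2, Twist1, Foxd3, Tfap2a, Ets1, Tfap2b), the replicates of neighbours overlapped only between Tfap2a and Ets1. In the order by coding starts (Ets1, Snai1, Ednrb, Snai2, Twist1, Tfap2a, Foxd3, Tfap2b), they overlapped only between Twist1 and Tfap2a. The largest step in the order by coding starts was from Snai2 to Twist1 (2.06-fold in density). By normalised counts not divided by length, Twist1 was instead the higher of these (1392 against 1066). With 2 libraries these gaps were read against the spread of the replicates, with no test.

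The number of intervals differed between the genes as well. Ets1 had 43 intervals (99.2nd percentile of genes), Tfap2b and Twist1 24 each, Ednrb 22, Tfap2a 18, Snai1 15, Foxd3 9 and Snai2 2, against a median of 3 per gene. The stretch of genome nearest to each start differed too, from 69.6 kb for Snai1 to 972 kb for Ets1, against a median of 47.7 kb. Per Mb, Snai1 had 216 intervals (95.4th percentile) and Snai2 11.6 (17.8th percentile), while the other 6 lay between 31.7 and 72.2, against 43.8 over the whole genome and 60.3 for the median gene, above which only Tfap2a lay among these 6. The closely related Snail genes thus stood at opposite ends.

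**Figure D2:**
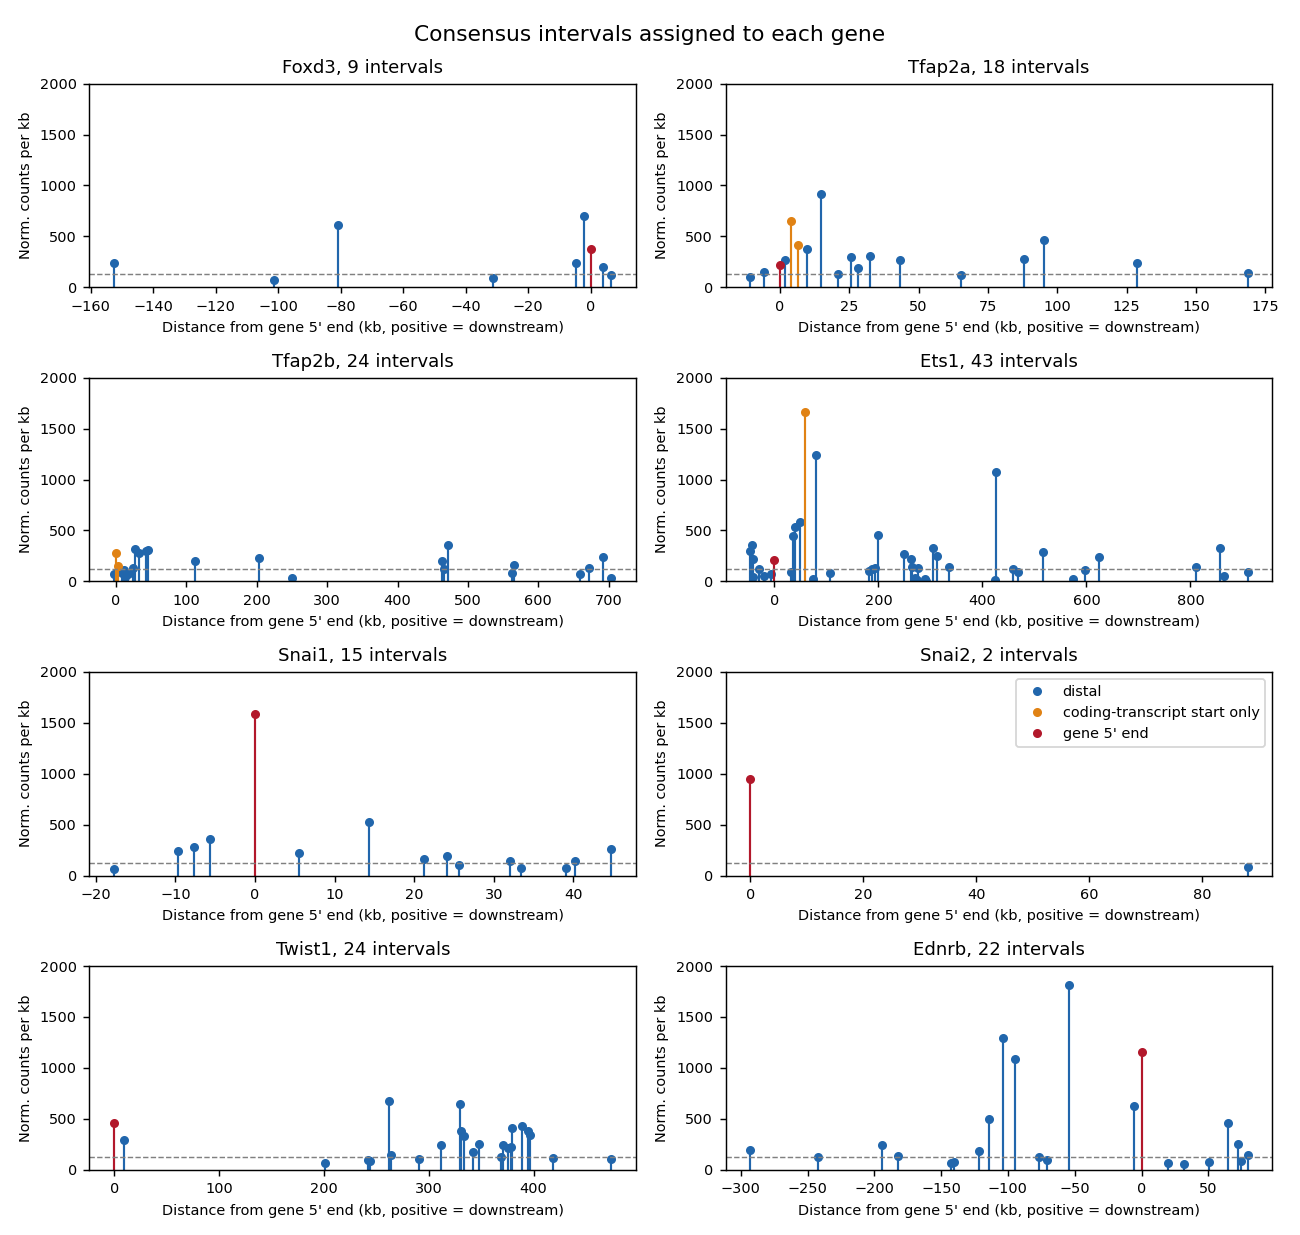
Density of each interval (vertical axis, normalised counts per kb, mean of 2 replicates) against its distance from the gene 5′ end (horizontal axis, kb, positive downstream, a separate scale for each gene). Red marks the gene 5′ end, orange other coding-transcript starts, blue distal intervals, and the dashed line is the median of all distal intervals, 126. Ednrb had upstream distal intervals of 1813, 1289.9 and 1090.2, Ets1 had distal intervals of 1237 and 1076 downstream, and Snai2 had a single distal interval.

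Summed over all its intervals, Ets1 held 8889 ± 14.7 normalised counts (99.0th percentile of genes), followed by Ednrb with 8444 ± 338, Twist1 with 5430 ± 215 and Tfap2a with 5309 ± 192. Foxd3 held 3802 ± 34.7, Snai1 3315 ± 24.95 and Tfap2b 2861 ± 21.0. Snai2 held 1088 ± 81.9, close to the median gene (1103). The share of these counts at the gene 5′ end separated the genes: 97.8% and 98.3% in the 2 replicates for Snai2, 38.6% and 37.5% for Snai1, 26.0% and 25.2% for Twist1, 21.4% and 20.2% for Foxd3 and 20.0% and 19.4% for Ednrb. It was 2.33% and 2.61% for Tfap2a, 0.992% and 1.02% for Ets1 and 0 for Tfap2b, whose counts lay at other starts and in distal intervals. The Twist1 sum and share rest on assignment by gene 5′ ends, since 22 of its 24 intervals lay within Hdac9, as described below.

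The most accessible distal intervals belonged to Ednrb and Ets1. For each gene the densest distal interval was named by rule (counting those whose mean normalised count was over 100, where the gene had any), and further intervals were named after their values were seen. For Ednrb it lay 54.3 kb upstream of the gene, between genes (chr14:103898742-103899786, the Ednrb distal sequence above), and held 1846 and 1943 counts. Its density of 1767 and 1859 (1813 ± 64.6) was at the 99.6th percentile of all distal intervals and above the Ednrb promoter in both replicates. An interval 103 kb upstream, over an exon of the noncoding gene Gm37910 (986 and 1096 counts, 1289.9 ± 95.6 per kb), was above the promoter in both replicates too, and one 94.8 kb upstream (1046 and 1117 counts, 1090.2 ± 50.0 per kb) was below it in both. The farthest Ednrb interval, 293 kb upstream, held 76 and 87 counts.

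For Ets1 the rule named the interval of the coding starts, described above. Among intervals with no start, the highest was in an intron of Ets1 79.5 kb downstream of the gene 5′ end (chr9:32715752-32716702, the Ets1 distal sequence), with 1164 and 1189 counts and a density of 1224 and 1249.8 (1237 ± 17.9). One 426 kb downstream, in an intron of Gm27166, held 387 and 392 counts in 362 bases (1076 ± 9.14 per kb). The farthest of all member intervals was the Ets1 interval 909.8 kb downstream (54 and 68 counts). Of the 43 Ets1 intervals, 15 had a mean normalised count over 100, and the remaining ones went down to 1 and 2 counts in the 2 replicates, so the large number of Ets1 intervals included many weak ones.

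For Tfap2a the most accessible distal interval overlapped a coding exon of the gene 14.8 kb downstream of its start (chr13:40722604-40723574, 892 and 888 counts, 917 ± 3.44 per kb). Its density was above that of every Tfap2a start. It also overlapped the noncoding gene Gm47061, and whether a noncoding start lay in it was not examined. For Foxd3 it lay 2.21 kb upstream, over an exon of the noncoding gene Gm12688 (chr4:99653156-99654092, 648 and 660 counts, 698 ± 8.65 per kb). A second one lay 80.9 kb upstream, over an exon of the noncoding gene Gm12690 (1470 and 1552 counts, 608 ± 23.0 per kb). Both were above the Foxd3 promoter in both replicates. The farthest intervals of Tfap2a and Foxd3 were 169 kb downstream (34 and 47 counts) and 152 kb upstream (279 and 259 counts).

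For Twist1 the most accessible distal interval was 262 kb downstream in an intron of Hdac9, the neighbouring histone deacetylase gene (chr12:34219955-34220562, the Twist1 distal sequence, 424 and 401 counts, 678 ± 27.1 per kb). Of the 24 Twist1 intervals, 22 lay within Hdac9, and 16 had a mean normalised count over 100. These intervals belong to Twist1 because the 5′ end of the Hdac9 record lies farther off, and with every coding-transcript start counted, Twist1 kept 3 intervals. The other 7 genes had no interval within another protein-coding gene. The farthest Twist1 interval, 474 kb downstream, held 111 and 89 counts.

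For Snai1 the most accessible distal interval was 14.3 kb downstream, over an exon of the noncoding gene Gm11476 (chr2:167552453-167553559, 558 and 607 counts, 526 ± 31.0 per kb). For Tfap2b it was 472 kb downstream, between genes (chr1:19680847-19681737, 302 and 330 counts, 355 ± 22.0 per kb). The farthest Snai1 interval lay 44.8 kb downstream (110 and 119 counts) and the farthest Tfap2b one 703.7 kb downstream (6 and 8 counts). The single distal interval of Snai2 lay 88.1 kb downstream (chr16:14793938-14794183) and held 25 and 18 counts, 87.4 ± 20.2 per kb, below the median of all distal intervals. Snai2 was thus the one member whose counts lay almost wholly at its promoter.

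Over all 8 genes, 80 of the 157 intervals (51.0%) had a mean normalised count over 100, against 38.8% of all intervals. By gene the number was 16 of 24 for Twist1, 15 of 43 for Ets1, 14 of 18 for Tfap2a, 12 of 22 for Ednrb, 8 of 15 for Snai1, 8 of 24 for Tfap2b, 6 of 9 for Foxd3 and 1 of 2 for Snai2. The share was above that of all intervals in every gene but Ets1 (34.9%) and Tfap2b (33.3%). Of the 157 intervals 7 overlapped the 5′ end of a protein-coding gene, and 10.2% of all intervals did. As members were defined by the starts of 8 genes, this count could hardly be higher, and it says nothing on promoters. Intervals of 1 gene share its neighbourhood and are not replicates, so these shares were not tested.

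The 150 distal member intervals had a median density of 170.0 ± 8.89 (n = 2), against 126 ± 2.05 for all 107284 distal intervals, and a median length of 596 against 472 bases. Without intervals at coding starts the medians were 161 ± 6.84 (145 intervals) and 124 ± 2.01. By construction 25% of all distal intervals are in the upper quartile by density, and 66 of the 150 members (44.0%) were. Of these 66, Ets1 had 17, Twist1 13, Tfap2a 11, Tfap2b and Ednrb 8 each, Snai1 5 and Foxd3 4. Most Twist1 intervals lay within Hdac9. In the top 5% of all distal intervals there were 8 members (5.33%), near the background share. These 8 belonged to Ets1 (3, with the interval of the coding starts), Ednrb (3), Foxd3 (1) and Tfap2a (1).

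Distal intervals were also compared at matched distance from the gene. Within 10 kb the 20 distal members had a median density of 246 ± 10.7 against 160.0 ± 0.137 for all distal intervals. From 10 to 50 kb it was 158 ± 8.29 (38 members) against 123 ± 1.40, and from 50 to 200 kb 162 ± 8.31 (34 members) against 122 ± 2.38. Over 200 kb away it was 148 ± 10.6 (58 members) against 119 ± 3.43. Of these 58 members, 22 were the Twist1 intervals within Hdac9, most of which left Twist1 when every coding-transcript start was counted. In each class the members' median was higher in both replicates. Over 200 kb this held with the Hdac9 intervals included, and a median without them was not computed. The highest median was in the class next to the genes, whereas the upper quartile was higher from 50 to 200 kb (456.5) than within 10 kb (367).

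**Figure D3:**
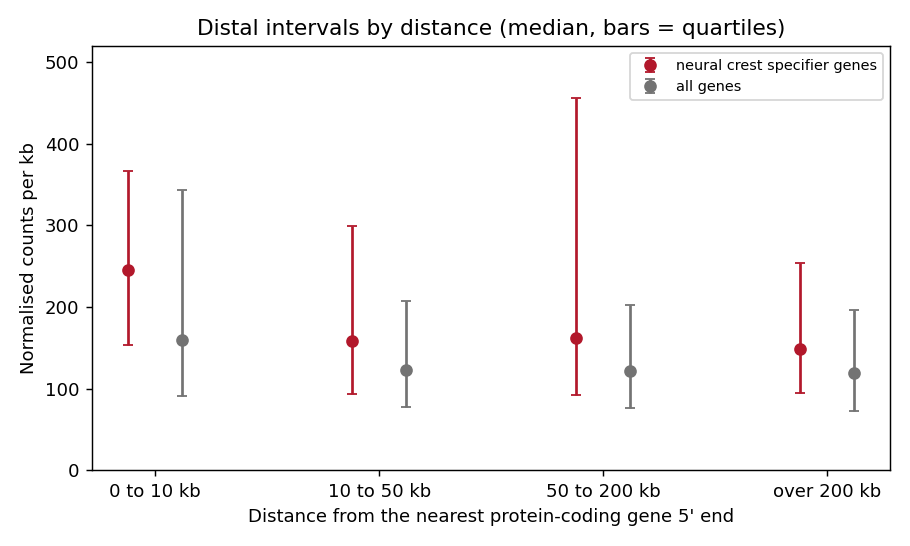
Median density of distal intervals (vertical axis, normalised counts per kb, mean of 2 replicates) by distance from the nearest protein-coding gene 5′ end (horizontal axis), for intervals of the 8 genes (red) and of all genes (grey), with bars from the lower to the upper quartile. The members' medians were above those of all genes in each class (246 against 160.0 within 10 kb), and the quartile ranges overlapped in every class. Of the 58 members over 200 kb away, 22 lay within Hdac9.

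By annotation, 43.9% of the member intervals lay between genes (35.2% of all intervals) and 33.1% in introns (39.5%). Another 8.28% covered exons of noncoding genes or transcripts (4.34%), 7.01% coding exons (6.82%) and 7.64% the start of a coding transcript or gene (12.5%). None of the 157 was placed in a UTR, against 1.67% of all intervals. The intergenic intervals were found mainly at 3 genes, with 16 each at Ednrb and Tfap2b and 17 at Ets1.

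The share of distal intervals with each motif differed by no more than a few percentage points between the members and all intervals. In the central 300 bases of distal intervals at least that long (123 members, 76413 in all), CAGGTG was found in 16.3% of the members and 17.7% of all, CAGATG in 24.4% and 27.7%, and CAGCTG in 25.2% and 22.5%. GCCNNNGGC was found in 9.76% and 9.70%, ACAATG in 24.4% and 22.3%, and TAATTA in 9.76% and 7.88%. For signals given to these cells, the half-site of retinoic acid receptors AGGTCA was found in 22.8% and 21.4%, and the Gli site GACCACCCA in 0 of 123 members and 0.499% of all. The forkhead motif GTAAACA was found in 6.50% and 4.51%, the ETS motif CCGGAAGT in 0.813% and 0.465%, and the octamer ATGCAAAT in 1.63% and 2.12%. Motifs were searched on both strands, and the 3 E-boxes are forms of CANNTG that cannot overlap as the same 6 letters.

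In the 250 bases before the gene 5′ end, CAGGTG was present at Snai1 and Ets1 (17.4% of all 21938 genes), CAGCTG at Snai2 and Ednrb (12.3%), CAGATG at Tfap2a (13.0%), GCCNNNGGC at Snai1 (14.5%) and AGGTCA at Tfap2a (12.8%). Foxd3, Tfap2b and Twist1 held none of the 11 motifs there. A match describes letters only, and says nothing on binding.

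No member interval was called different between the 2 libraries. None of the 157 intervals passed an adjusted p of 0.01 in the two-sided exact binomial test with Benjamini-Hochberg adjustment over all 119502 intervals, of which 0% passed. At an unadjusted p under 0.05 there were 17 (10.8%), against 8.39% of all intervals, and with edgeR TMM scaling again 0 members passed, against 6 intervals in the whole table. The test compares 2 libraries and no conditions.

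The lowest p was in an Ednrb coding exon 20.0 kb downstream of its start (chr14:103822661-103824406), with 84 counts in replicate 1 and 147 in replicate 2 (exact binomial p = 4.08e-05, Benjamini-Hochberg adjusted p = 0.0880). It was the only member interval with a mean normalised count over 100 that was more than 1.5-fold apart. Among the members over 100, the log2 ratio of the replicates had an SD of 0.17.

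**Figure D4:**
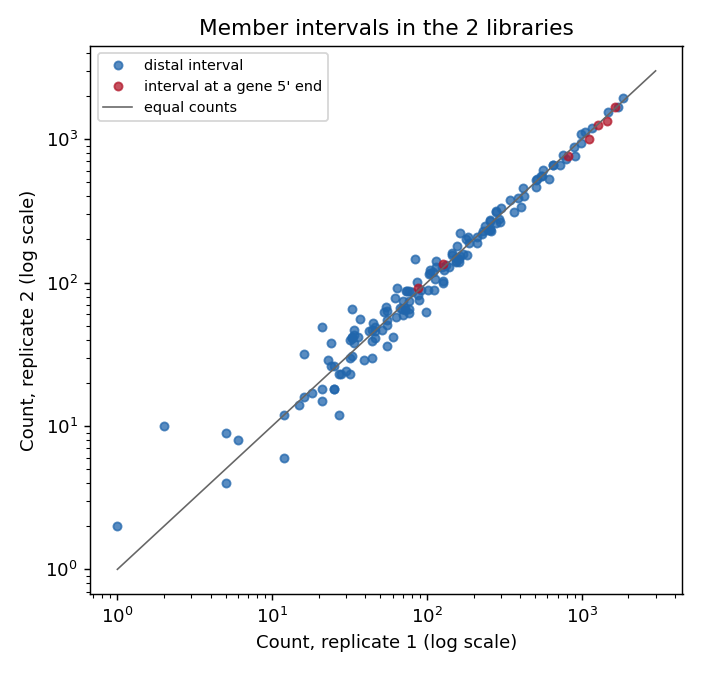
Counts of the 157 member intervals in replicate 1 (horizontal axis, log scale) and replicate 2 (vertical axis, log scale), with intervals at a gene 5′ end in red, distal intervals in blue, and a line of equal counts. The points follow the line from 1 to 1943 counts and spread more widely below about 100 counts.

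Other genes of the crest pathway, from lists fixed with earlier results of these data known, were mostly open at their start as well. Of 63 genes in 5 lists, 55 (87.3%) had an interval at the gene 5′ end and 61 at a coding start, against 61.5% and 66.7% of all genes. With 1 group no gene could be tested for a rise or fall. The medians of the lists were within the range of the 8 genes, 240 to 1665.

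Among 8 other specifiers the median coding-start density was 969 ± 3.73. Sox8 (1102 ± 69.7), Sox9 (655 ± 6.52) and Sox10 (108 ± 8.71) encode the SoxE factors that keep crest cells multipotent and direct glia, and Sox10, with no interval at its gene 5′ end, was below all 8 members. Among 12 border factors the median was 530.0 ± 3.15, with Msx2 at 907 ± 76.6, Msx1 at 790 ± 31.8, Pax3 at 358 ± 1.49 and Pax7 at 286 ± 15.3. The paired-box genes of the dorsal neural tube were thus in the range of Foxd3 and Tfap2b, below the Msx genes.

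Among 15 genes of migration and EMT the median was 596 ± 6.02, from Twist2, the relative of Twist1, at 291 ± 8.38 to the integrin gene Itgb1 at 2429.8 ± 11.6. Cdh1, the E-cadherin gene repressed by Snail factors, was at 306 ± 14.9 and Cdh2, the N-cadherin gene of neural cells, at 1160.0 ± 10.2. Snai3, the third Snail gene, was at 606 ± 14.6, below Snai1 and Snai2. Cdh2 lay above Cdh1 in both replicates.

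Among 15 receptors and ligands the median was 661 ± 2.33. The endothelin receptor gene Ednra (1026 ± 20.7) was below Ednrb (1155 ± 22.9) in both replicates, and the ligand genes Edn1 (404 ± 17.2) and Edn3 (192 ± 7.58), the ligand of Ednrb, were lower. Among 13 genes of crest derivatives the median was 640 ± 19.7, with Mitf, the melanocyte regulator, at 1633 ± 69.4. Among other genes of pigment cells, Pmel was at 1272 ± 0.735 and Dct at 217 ± 14.6, and Tyr (tyrosinase) had no interval at a start. Pmel had no interval at its gene 5′ end, and no interval was assigned to it by gene 5′ ends. Its value at a coding start thus came from an interval assigned to another gene.

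**Figure D5:**
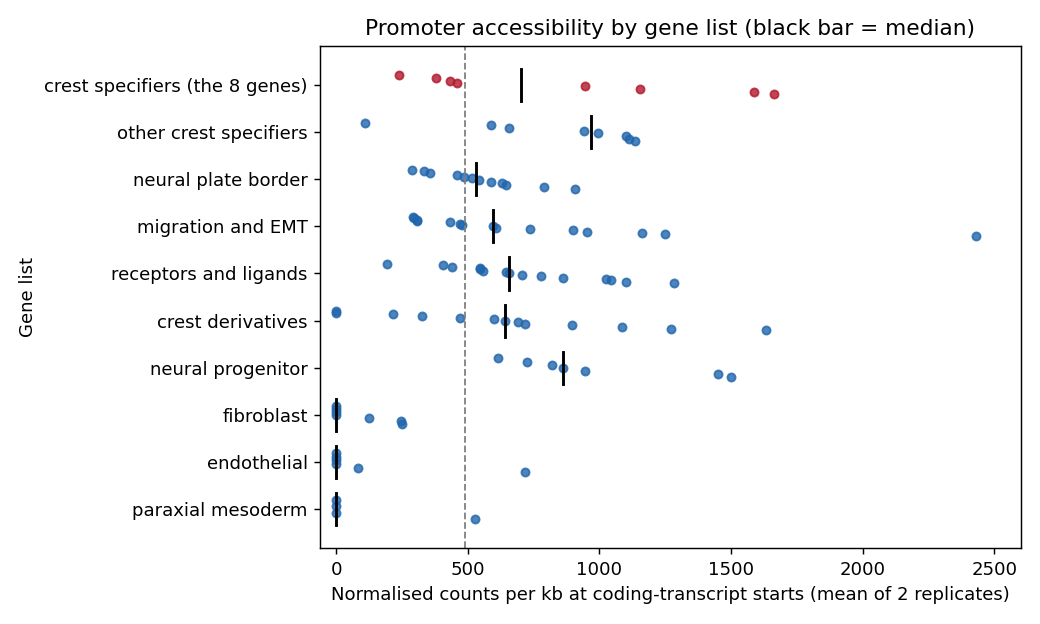
Density at coding-transcript starts (horizontal axis, normalised counts per kb, mean of 2 replicates) of each gene in 10 groups (vertical axis), with the 8 genes in red, other lists in blue, medians as black bars and the median of all genes, 487, as a dashed line. The medians of the crest lists were between 530.0 and 969, that of neural progenitor markers was 862, and those of fibroblast, endothelial and paraxial mesoderm markers were 0.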

How the data were processed

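Both libraries were ATAC-seq of live sorted cells, and the deposited table holds whole-number counts of fragments per consensus interval, made by the authors with the nf-core atacseq pipeline on mm10 and MACS peaks. Per the file headers, featureCounts 2.0.1 counted read pairs in every interval that at least 0.2 of the fragment overlapped, so a fragment can count in more than 1 interval. Of the table's columns, 3 belong to no sample described here and were not used. Totals were 31876165 and 31672240 counts. Fragments carry no molecular identifiers, so counts are not counts of independent molecules.

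Intervals were assigned with GENCODE M21 to the nearest 5′ end of a protein-coding gene (ties kept). Counts were divided by size factors from DESeq2 1.42.0 (R 4.3.3). Density is normalised counts per kb. Percentiles of genes are over all 21938 protein-coding genes, with genes that had no interval at 0. Percentiles of single intervals are over all intervals at a gene 5′ end or over all distal intervals, as stated with each. The 2 libraries were compared with a two-sided exact binomial test (scipy 1.17.1), with Benjamini-Hochberg adjustment over all intervals. The test was also run on simulated counts that held counting noise only, as the test assumes. That run therefore says nothing on how the test behaves under the spread of real libraries. Motifs were searched in the GRCm38.p6 genome. TMM (edgeR 4.0.16), total counts, other limits, coding-transcript starts, distance from the interval centre and each library alone were the alternatives.

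Named were all 8 genes, and for each its interval at the start, its most accessible distal interval (mean normalised count over 100, if any), its farthest interval and any interval with a mean normalised count over 100 that was over 1.5-fold apart between libraries. Members, lists and tests were chosen with earlier results of these data known. With 1 group, no comparison between groups and no likeness of pattern across conditions could be computed.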

Additional observations from a re-analysis of the deposited data

How the results depend on the processing

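Of 30 alternatives to the main results 22 stayed within the limit set for them, and 8 moved them. The limit was the SD of the replicates for densities, the half-width of an exact 95% binomial interval for shares and 1.5-fold for counts. All scalings gave size factors from 0.997 to 1.003, so a change of scaling could move little. Counts per interval are in another unit, and a share over a limit changes with the limit. The tally is therefore no measure of robustness. The share of members over a limit of counts was 51.0% at 100, 69.4% at 50 and 31.2% at 200, against 38.8%, 58.0% and 24.99% of all intervals. The median distal density of 170.0 was 188 among intervals with a mean normalised count of at least 10, 153 with coding-transcript starts, and 93.0 as normalised counts per interval. The median promoter density of 419 was 702 with coding-transcript starts and 928 as normalised counts per interval. The share of members with CAGGTG was 18.5% in the central 300 bases (18.2% of all intervals) and 34.4% over whole intervals (33.6%). With 1 library at a time, the distal density was 164 to 176, the promoter density 403 to 436 and the share over 100 counts 50.3% to 51.0%. Another 113 alternatives for single genes, lists and motifs left 90 unmoved and moved 23, among them the intervals of Twist1, 24 by gene 5′ ends and 3 by coding-transcript starts, and the promoter of Ets1, 213 and 1665. No paired analysis was possible because the 2 libraries form 1 group. Intervals with few counts limit the precision: below about 100 counts the 2 replicates of an interval spread more widely, and 2 libraries give no test of levels.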

Other observations

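Of 8 relatives of the members by gene family, 5 had an interval at a coding start, near the share of all genes (66.7%). Ets2 had a density of 1320 ± 45.8 (n = 2), Foxd2 851 ± 12.9, Foxd1 657 ± 33.6, Fli1 329 ± 7.93 and Tfap2e 296 ± 23.7, whereas Tfap2d, Foxd4 and Erg had none that overlapped a start. All 8 had an interval within 1 kb of the gene 5′ end, a distance for which no share over all genes is given. Foxd1 and Foxd2 were both above Foxd3 in both replicates, and Fli1, which lies on the same chromosome as Ets1, was below the coding start of Ets1.

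Over whole intervals the homeodomain motif TAATTA was found in 21.0% of the 157 member intervals and 12.9% of all intervals, while in the central 300 bases it was found in 10.0% and 6.99%. Member intervals were longer than others (median 608 against 525 bases), and the part of length in this difference was not tested.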
